A study of Homo sapiens with 6 samples.

Results

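The interiors of chromosomes 4, 13 and 18, the human chromosomes commonly described as poor in genes, held 441 of the 12579 γH2AX peaks listed for 4 drug-treated cultures. The rule used positions alone, with the upper limit taken from the highest end listed on each chromosome, but the 3 chromosomes were grouped with their shares of peaks already known. A peak belonged when its midpoint lay at least 5 Mb inside the first base of the chromosome and at least 5 Mb below the highest end listed on it. The stretches around the centromeres, 46 to 55 Mb on chromosome 4 and 13 to 20 Mb on chromosome 18, were left out. The remaining interiors spanned 171 Mb on chromosome 4, 90.0 Mb on chromosome 13 and 59.1 Mb on chromosome 18. Together they made up 11.3% of the genome between the first and last covered bases of each chromosome. On chromosome 13 the interior was counted from base 19130223, since no list had a peak before it.

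The study used DLD1, an established line from a human colorectal cancer, in a wild-type form (UNG+/+, WT) and a form in which UNG was knocked out (UNG-/-, KO). The sources used here do not say whether the knockout line is 1 clone, and they give no drug doses or times. Chromatin was immunoprecipitated with an antibody against phosphorylated H2A.X and sequenced. Each genotype was treated with pemetrexed or with cisplatin, with 1 library and 1 peak list in each of these 4 groups. The 2 untreated libraries of the series were not analysed here. Since every group has 1 library, and the read depth is unknown, there is no replicate check. The 95% intervals below are exact, cover counting error between lists only and treat neighbouring peaks as independent, which they are not.

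H2AX is a histone variant that is phosphorylated on chromatin around DNA double strand breaks and at stalled replication forks, and the mark, γH2AX, spreads from the lesion along the chromosome. UNG is the uracil DNA glycosylase that cuts uracil out of DNA and so starts base excision repair. Pemetrexed, an antifolate, lowers thymidylate synthesis and so favours the use of uracil in place of thymine during replication, whereas cisplatin crosslinks bases directly. Chromosomes 4, 13 and 18 carry long stretches that are rich in A and T, have few genes, replicate late in S phase and lie near the nuclear periphery.

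In these interiors the knockout list after pemetrexed was 1.22 times as long as the wild-type list, whereas elsewhere in the genome it was 6.12 times as long. The interiors held 68 WT pemetrexed peaks, 83 KO pemetrexed peaks, 83 WT cisplatin peaks and 207 KO cisplatin peaks. The KO cisplatin list was thus the longest here, and the other 3 lists were close to each other. Per megabase, this came to 0.212 WT pemetrexed, 0.259 KO pemetrexed, 0.259 WT cisplatin and 0.646 KO cisplatin peaks. Over the rest of the genome the densities were 0.339, 2.07, 0.688 and 1.74 peaks per Mb in the same order. All 4 lists were sparser in the interiors, and the KO pemetrexed list differed most.

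As shares of their lists, the interiors held 7.42% of the placed WT pemetrexed peaks (95% exact binomial interval 5.81 to 9.32%) and 1.57% of the KO pemetrexed peaks (1.26 to 1.95%). They held 4.60% of the WT cisplatin peaks (3.68 to 5.67%) and 4.54% of the KO cisplatin peaks (3.95 to 5.18%). The 2 cisplatin shares overlapped in their intervals and lay between the 2 pemetrexed shares. Every share was below the 11.3% of the span that the interiors make up.

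**Figure D1:**
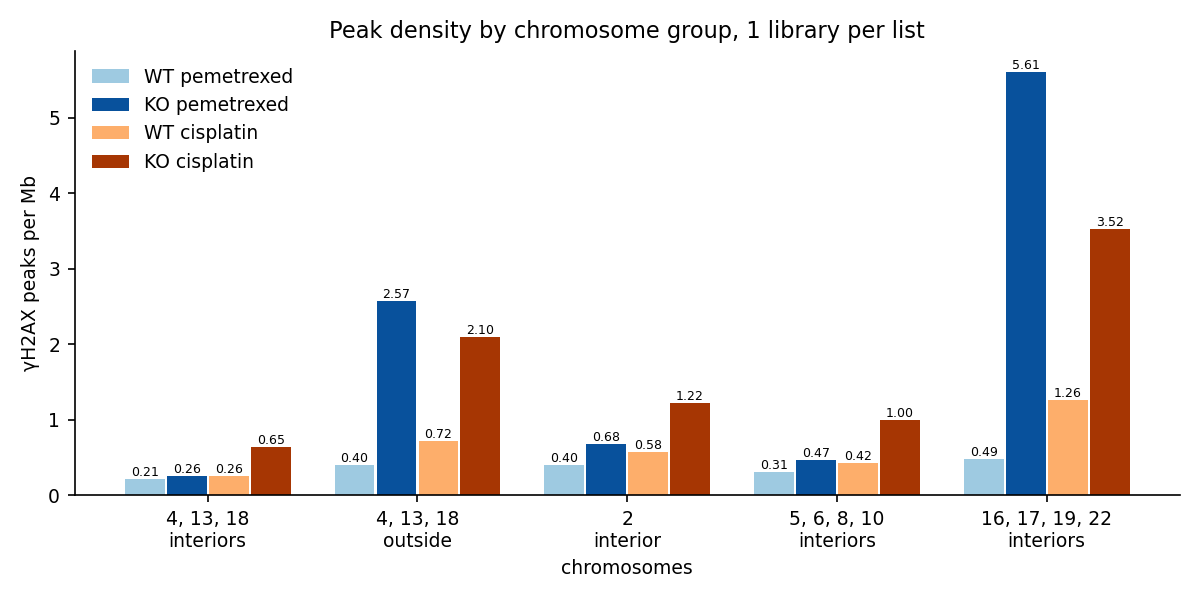
γH2AX peaks per Mb (vertical axis) in 5 groups of chromosome stretches (horizontal axis), with 1 bar for each of the 4 peak lists and the value above each bar. In the interiors of chromosomes 4, 13 and 18 the KO pemetrexed bar (0.26) stands at the height of the WT cisplatin bar, while outside those interiors on the same chromosomes it is the tallest (2.57).

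The first comparison asked how loss of UNG changed the number of peaks after pemetrexed. KO over WT was 83 to 68 peaks, a ratio of 1.22 with a 95% exact interval of 0.875 to 1.71, which includes 1. Over all other placed peaks the ratio was 6.12 (5.69 to 6.59). The odds that a peak lay in the interiors were 0.1996 times as high in the KO as in the WT pemetrexed list (95% exact interval 0.142 to 0.282). The low share of chromosomes 4, 13 and 18 in the KO pemetrexed list was already known when the 3 were grouped, so this odds ratio is a description and not independent evidence of its direction.

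The ratio depended on how peaks were counted. With peaks of a list within 100 kb joined to 1 region, the interiors held 42 KO and 67 WT pemetrexed regions, a ratio of 0.627 (0.416 to 0.936). With peaks of at least 600 bp alone, 82 KO but only 21 WT pemetrexed peaks were left and the ratio was 3.90 (2.39 to 6.64). The 6.12 for the other placed peaks is for peaks as listed and is no reference for these ratios. With all peaks counted the same way, the odds ratio of lying in the interiors was 0.424 (0.278 to 0.639) after joining within 100 kb. For peaks of at least 600 bp it was 0.235 (0.142 to 0.405). The covered bases came to 105 kb in KO and 40.2 kb in WT.

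The intervals of the 3 chromosomes overlapped in this ratio. Chromosome 4 held 43 KO and 30 WT pemetrexed peaks (ratio 1.43, 0.879 to 2.37), and chromosome 13 held 24 and 20 (1.20, 0.635 to 2.29). Chromosome 18 held 16 and 18 (0.889, 0.424 to 1.85), so KO peaks were the fewer there by 2. Each of the 3 intervals includes 1.

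After cisplatin the knockout excess in the interiors was close to that of the rest of the genome. KO over WT was 207 to 83 peaks, a ratio of 2.49 (1.92 to 3.26), against 2.53 (2.39 to 2.68) for all other placed peaks. The odds ratio of lying in the interiors was 0.986 (0.756 to 1.30), an interval that includes 1. By chromosome, the ratios were 2.06 on chromosome 4 (99 to 48 peaks, 1.45 to 2.98), 2.76 on chromosome 13 (58 to 21, 1.65 to 4.79) and 3.57 on chromosome 18 (50 to 14, 1.94 to 7.00). All 3 intervals lay above 1 and they overlapped. With peaks of at least 600 bp alone the ratio over the interiors was 3.87 (178 to 46 peaks).

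Between drugs, interior peaks in KO cells were 0.401 times as many after pemetrexed as after cisplatin (0.307 to 0.520), where the rest of the genome gave 1.19 (1.14 to 1.24). Joining within 100 kb lowered the interior ratio to 0.239. In WT cells the pemetrexed list held 0.819 times as many interior peaks as the cisplatin list (0.586 to 1.14), and the rest of the genome gave 0.492 (0.453 to 0.535). With peaks of at least 600 bp alone the WT ratio was 0.457. The order of the drugs in KO cells was therefore the opposite of that in the pooled rest of the genome. It was the same as in some other interiors, where the KO ratio was 0.474 (0.409 to 0.547) for chromosomes 5, 6, 8 and 10 and 0.556 (0.455 to 0.678) for chromosome 2. In the interiors of chromosomes 16, 17, 19 and 22 the order was the opposite, at 1.59 (1.46 to 1.74). Pooled over all autosomes other than 4, 13 and 18, the interiors gave 0.937 (0.893 to 0.983). In WT cells the pemetrexed list was the shorter in the pooled rest of the genome and in the interiors of chromosomes 4, 13 and 18. The interval includes 1 inside these interiors. Inside them this order rested on chromosome 4, without which the WT ratio was 1.09 (38 to 35 peaks, 0.668 to 1.77).

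On chromosome 4 most of the KO pemetrexed peaks lay outside the interior. Of 117 there, 74 were outside and 36.8% were inside (28.0 to 46.2%), against 81.1% of the WT pemetrexed peaks (64.8 to 92.0%), 76.2% of the WT cisplatin peaks (63.8 to 86.0%) and 69.7% of the KO cisplatin peaks (61.5 to 77.1%). On chromosome 13, 52.2% of the KO pemetrexed peaks were inside (36.9 to 67.1%) and 75 to 87.0% of the other lists. On chromosome 18, the shares inside ran from 66.7 to 75% in all 4 lists.

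Density in the KO pemetrexed list was lower with each step away from the chromosome end. Within 5 Mb of an end of these 3 chromosomes (for chromosome 13, the far end alone) it was 4.12 peaks per Mb. From 5 to 10 Mb it was 0.640 and from 10 Mb inwards 0.227 peaks per Mb. The WT pemetrexed list had 0.499, 0.320 and 0.203 peaks per Mb in the same zones, and the KO cisplatin list 2.70, 1 and 0.616. The WT cisplatin list had 0.915, 0.20 and 0.264 peaks per Mb, so it alone was not sparsest from 10 Mb inwards. At 10 Mb or more from an end the 2 pemetrexed lists held 67 KO and 60 WT peaks, whereas within 5 Mb they held 99 and 12. On chromosomes 4 and 13 the difference between the genotypes after pemetrexed thus sat mostly outside the interiors. There the KO and WT lists held 74 and 7 peaks on chromosome 4 and 22 and 3 on chromosome 13. Chromosome 18 did not share this, with 7 and 6 peaks outside its interior, the left-out centromere stretch included. The KO pemetrexed peaks nearest to a 5 Mb limit were 83.0 kb outside it and 952 kb inside it, both near the far end of chromosome 4. Beside the left-out stretch of chromosome 18 the nearest one inside was 414 kb away and the nearest one outside 241 kb.

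Among chromosomes 1 to 10, the interiors of 2, 5, 6, 8 and 10 came nearest to the pemetrexed ratios of chromosomes 4, 13 and 18. The interior of chromosome 21, with few peaks, lay within the range of those ratios at 1.42 (17 to 12 peaks, 0.638 to 3.25). The KO over WT ratio after pemetrexed was 1.70 (1.31 to 2.22) in the interior of chromosome 2 and 1.51 (1.25 to 1.83) in those of chromosomes 5, 6, 8 and 10, where no centromere was left out. Among the last, the ratio ran from 0.630 on chromosome 8 to 2.11 on chromosome 6. The odds ratio of the interiors of 4, 13 and 18 against them was 0.719 (0.467 to 1.11) for chromosome 2 and 0.807 (0.548 to 1.19) for chromosomes 5, 6, 8 and 10. Both intervals include 1. Since these chromosomes are named here for their near ratios, this is a description and not a test. Chromosomes 1, 3 and 7 had higher ratios in their interiors, 4.74 (3.70 to 6.14), 2.94 (2.19 to 3.98) and 4.66 (3.31 to 6.70). Against the interiors of the chromosomes rich in genes, 16, 17, 19 and 22, which held 1290 KO and 112 WT pemetrexed peaks, it was 0.106 (0.0718 to 0.157). After cisplatin none of these 3 odds ratios, from 0.896 to 1.18, had an interval that left out 1.

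Among the 22 autosome interiors, those of chromosomes 8, 4, 13 and 18 had the lowest KO pemetrexed densities, 0.250 to 0.271 peaks per Mb. They rested on 16 to 43 peaks each. The lowest KO over WT ratio after pemetrexed was that of chromosome 8 (34 to 54 peaks, 0.630, 0.397 to 0.985), followed by chromosomes 18, 13, 21 and 4. Chromosome 18 had the highest KO over WT ratio of all autosome interiors after cisplatin and the next to lowest after pemetrexed, with wide intervals on both (16 to 18 peaks after pemetrexed and 50 to 14 after cisplatin).

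**Figure D2:**
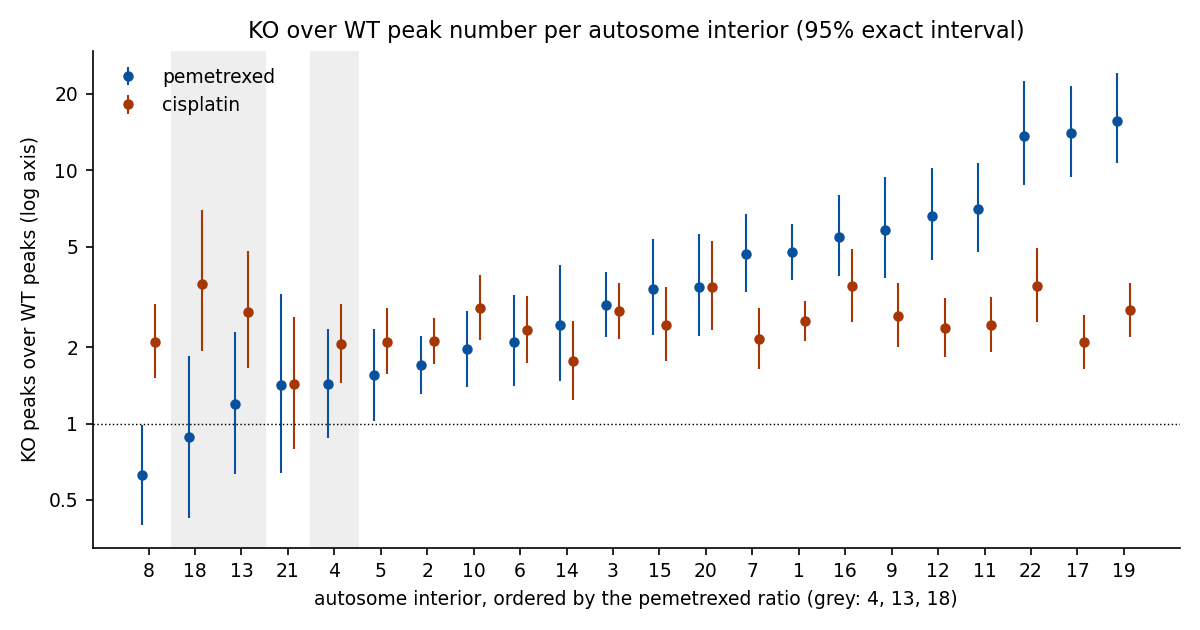
KO over WT ratio of peak numbers (vertical log axis) in the interior of each autosome (horizontal axis, ordered by the pemetrexed ratio), as points with 95% exact intervals, pemetrexed in blue and cisplatin in brown. Chromosomes 18, 13 and 4, shaded grey, are among the 5 lowest for pemetrexed (0.889, 1.20 and 1.43), with chromosome 8 below them, while their cisplatin ratios run from 2.06 to 3.57, the last (chromosome 18) being the highest of all.

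The interiors were next divided into windows of 1 Mb, to see how many places the peaks came from. Of 320 windows whose middle lay in the interiors, 60 held a WT pemetrexed peak, 68 a WT cisplatin peak and 124 a KO cisplatin peak. A KO pemetrexed peak was found in 32, fewer than in any other list although that list had more peaks than WT pemetrexed. No list had a peak in 146 windows, since 54.4% held a peak of any list, against 70.1% of the windows elsewhere. Among the 81 interior windows with a pemetrexed peak of either genotype, 26 had more KO than WT peaks, or 32.1% (22.2 to 43.4%), where 54% of 1169 such windows over the whole genome did. After cisplatin, 103 of 149 interior windows had more KO than WT peaks, 69.1% (61.0 to 76.4%) beside 70.4% over the genome. Of the 130 interior windows with a KO peak of either drug, 11 had more pemetrexed than cisplatin peaks, 8.46% (4.30 to 14.6%) beside 23.5%.

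The KO pemetrexed peaks were gathered in few of these windows. The 5 richest windows held 39 of the 83 peaks, 47.0%, and 6 windows were enough for 50% of them, while KO cisplatin took 33 windows, WT cisplatin 27 and WT pemetrexed 26. In 10 windows there were 3 or more KO pemetrexed peaks, and in 1 window that many WT pemetrexed peaks. The list was gathered elsewhere too. Of the 2527 other windows, 79 were enough for 50% of the KO pemetrexed peaks, while KO cisplatin took 270, WT cisplatin 233 and WT pemetrexed 247. There 396 windows had 3 or more KO pemetrexed peaks and 28 that many WT pemetrexed peaks.

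The window with the most peaks over all lists was 98000001 to 99000000 on chromosome 13, where 13 KO pemetrexed peaks lay beside 1 peak in each of the other 3 lists. The neighbouring window, 97000001 to 98000000, held 4 KO pemetrexed, 4 KO cisplatin, 2 WT pemetrexed and 1 WT cisplatin peak. On chromosome 4, 8000001 to 9000000 held 7 KO pemetrexed, 4 KO cisplatin, 1 WT pemetrexed and 1 WT cisplatin peak. These 3 windows thus had peaks in all 4 lists, with KO pemetrexed peaks the most numerous in the first and the last. On chromosome 18, 44000001 to 45000000 held 7 KO cisplatin, 3 KO pemetrexed, 1 WT pemetrexed and 1 WT cisplatin peak. Next came 12000001 to 13000000 on chromosome 18, where 9 KO pemetrexed peaks lay beside 1 KO cisplatin peak and no WT peak, level with 7000001 to 8000000 on chromosome 4 (4 KO pemetrexed, 5 KO cisplatin and 1 WT cisplatin peak). Of the 175 windows with a peak of the interiors (windows at their edges included), 8 had a peak in all 4 lists and 102 in 1 list alone. The same count was not made over the rest of the genome, so it does not set these interiors apart.

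**Figure D3:**
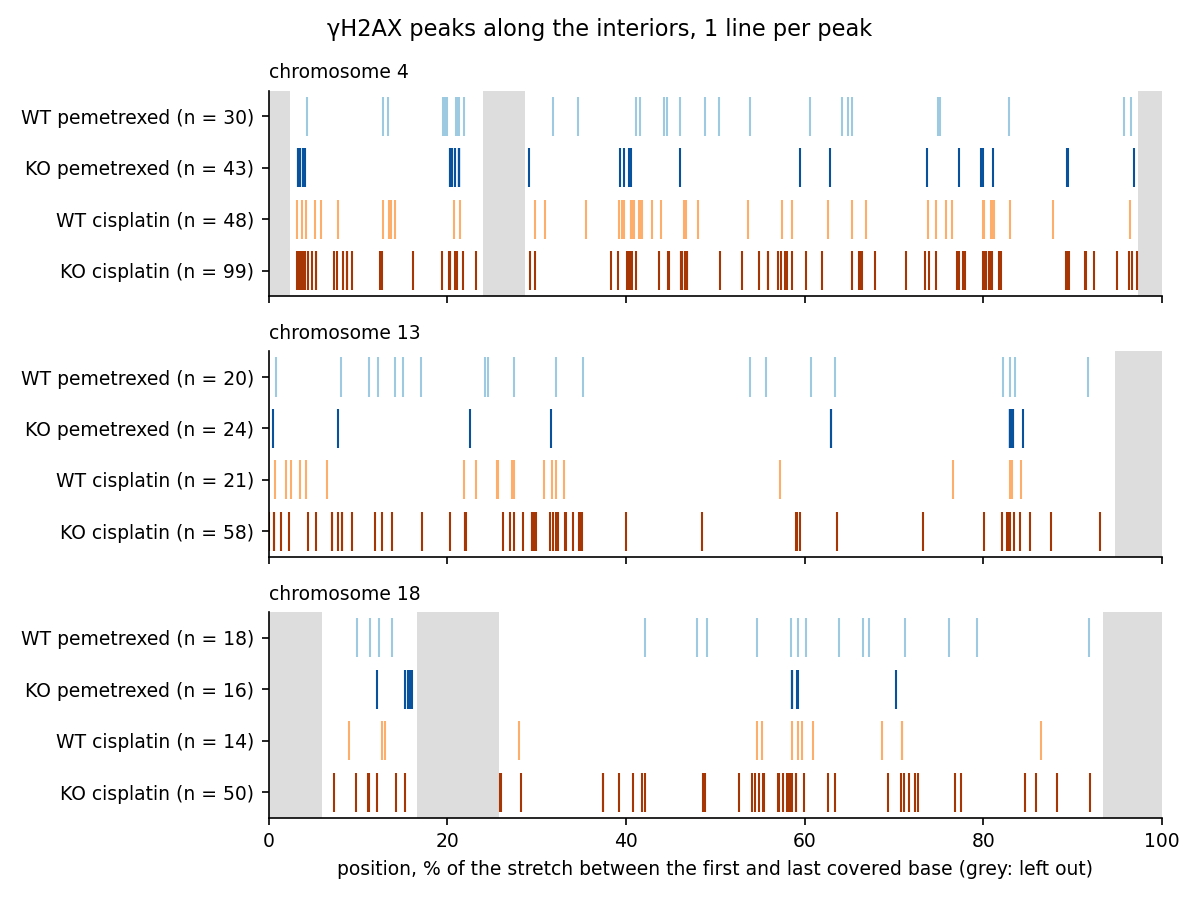
Each peak in the interiors of chromosomes 4, 13 and 18 is 1 vertical line at its place along the chromosome (horizontal axis, % of the stretch between the first and last covered base), with 1 row for each list and grey where the stretch was left out. Many of the KO pemetrexed lines fall into a few tight bundles, with long empty stretches between them. The lines of the WT lists form no such bundles but also leave long empty stretches, and those of KO cisplatin (n = 99, 58 and 50) run along most of each chromosome.

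Runs of KO pemetrexed peaks, each within 100 kb of the next, made up these bundles. Of the 83 peaks, 40 lay in 7 runs of 3 or more, and 27 stood alone. KO cisplatin had 4 runs of 3 peaks and 149 of 207 peaks alone, and neither WT list had any run of 3. The longest run was on chromosome 13, from 97932423 to 98137448, and had 15 KO pemetrexed peaks over 205 kb that covered 26310 bp. It held 1 WT pemetrexed, 1 WT cisplatin and 1 KO cisplatin peak. This run alone made up 15 of the 24 KO pemetrexed peaks of the interior of chromosome 13. The next was on chromosome 4, from 8043233 to 8187081, and had 7 KO pemetrexed peaks over 144 kb beside 1 KO cisplatin peak and no WT peak. On chromosome 18, 12281570 to 12356971 held 6 KO pemetrexed peaks within 75.4 kb and no peak of any other list. The other 4 runs had 3 KO pemetrexed peaks each, 1 on chromosome 18 (44788325 to 44817040) and 3 on chromosome 4 (39113672 to 39188910, 40895234 to 40930180 and 152014808 to 152145498). Away from the runs there were long stretches with no KO pemetrexed peak, 30.9 Mb on chromosome 4 (8187081 to 39113672) and 29.8 Mb on chromosome 13 (49118079 to 78888232). Such stretches were not particular to this list. Among the other lists the longest were 24.3 Mb on chromosome 4 (WT pemetrexed) and 22.9 Mb on chromosome 13 (WT cisplatin).

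Spacing in the lists followed the same order. The median gap to the nearest peak of the same list was 41.9 kb for KO pemetrexed, 306 kb for KO cisplatin, 812 kb for WT cisplatin and 998 kb for WT pemetrexed. Of the KO pemetrexed peaks, 67.5% had another within 100 kb (56.3 to 77.4%), and of the KO cisplatin peaks 28.02% (22.02 to 34.7%). In WT cells this held for 2.41% of the cisplatin peaks (0.293 to 8.43%) and 2.94% of the pemetrexed peaks (0.358 to 10.2%), in each case 1 pair. The KO pemetrexed list was thus the closest spaced although it held fewer peaks here than KO cisplatin.

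Over all other placed peaks these shares were higher, 88.7% for KO pemetrexed, 58.5% for KO cisplatin, 31.4% for WT cisplatin and 13.3% for WT pemetrexed, at densities that were also higher. In the interiors of chromosomes 5, 6, 8 and 10 the KO pemetrexed share was 68.2% (62.4 to 73.6%), close to that of chromosomes 4, 13 and 18. The WT cisplatin share there was 24.3% (19.1 to 30.1%) and the KO cisplatin share 42.3% (38.3 to 46.4%), both with intervals above those of chromosomes 4, 13 and 18. The density of WT cisplatin peaks was 0.425 per Mb there and 0.259 in the interiors of 4, 13 and 18, and that of KO cisplatin peaks 1.0003 and 0.646. The part of density in the spacing was not tested.

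Peaks in the interiors were narrow in both WT lists and wider in both KO lists. WT pemetrexed peaks had a median width of 579.5 bp (interquartile range 553 to 607.5, 412 to 852 in all) and WT cisplatin peaks of 607 bp (567 to 675, 391 to 1111 in all). KO cisplatin peaks had a median of 742 bp (654 to 868.5, 390 to 2070 in all) and KO pemetrexed peaks of 965 bp (823 to 1241, 584 to 8871 in all). The ranges overlapped, but the lower quartile of KO pemetrexed lay above the upper quartile of both WT lists. The order of the medians was the same on each of the 3 chromosomes, with KO pemetrexed the widest at 933 bp on chromosome 4, 1045.5 bp on chromosome 13 and 908.5 bp on chromosome 18. It was not particular to these interiors. For WT pemetrexed, WT cisplatin, KO cisplatin and KO pemetrexed the medians were 585, 624, 816 and 1180 bp over all other placed peaks. In the interiors of chromosomes 5, 6, 8 and 10 they were 580, 595, 772 and 970.5 bp.

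A width of 1 kb or more was reached by 41.0% of the KO pemetrexed peaks in the interiors (30.3 to 52.3%) and by 62.2% of those elsewhere (60.9 to 63.5%). In the interiors of chromosomes 5, 6, 8 and 10 the share was 45.7% (39.8 to 51.7%), which overlaps that of 4, 13 and 18. Outside the interiors on chromosomes 4, 13 and 18 it was 75.7% (66.3 to 83.6%). For KO cisplatin, 6.28% of the interior peaks (3.39 to 10.5%) and 20.2% of the others (19.05 to 21.5%) reached 1 kb. The share of 1 kb peaks was thus lower in the interiors than elsewhere for both KO lists. Of the WT pemetrexed peaks 0 of 68 reached 1 kb, which allows a share of up to 4.41% by 3 counts (exact upper bound 5.28%), and of the WT cisplatin peaks 2 of 83.

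**Figure D4:**
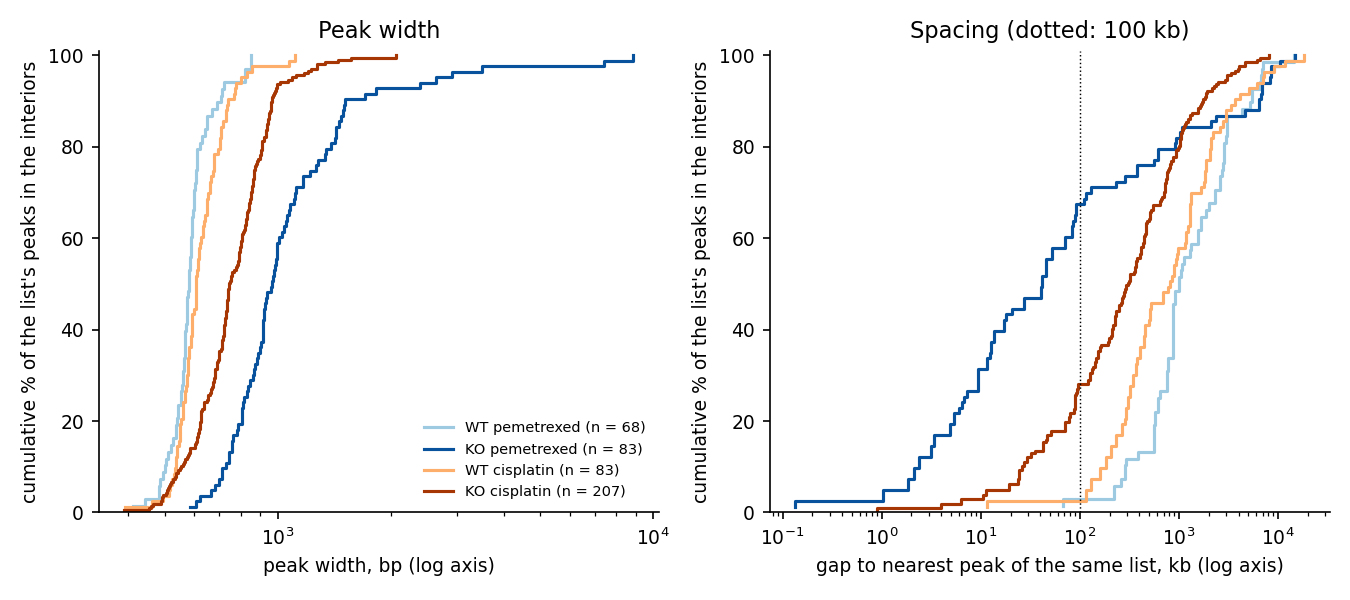
Cumulative % of each list's peaks in the interiors (vertical axes) by peak width in bp (left, log axis) and by the gap to the nearest peak of the same list in kb (right, log axis), 1 line for each list. KO pemetrexed peaks are the widest (median 965 bp) and the closest spaced (median gap 41.9 kb), and both WT lists lie at the narrow and widely spaced side.

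Of the 5 widest KO pemetrexed peaks of the interiors, 4 lay in these runs. First came 8871 bp on chromosome 18 (44802181 to 44811052), and then 7399 bp and 3500 bp on chromosome 13 (98123402 to 98130801 and 98133948 to 98137448). These 2 were neighbours, 3147 bp apart at the far end of the longest run. The fourth spanned 2922 bp on chromosome 4 (8043233 to 8046155), at the near edge of the run there, and the fifth 2651 bp on chromosome 13 (78888232 to 78890883). In all, 6 of 83 KO pemetrexed peaks were 2 kb or wider, 7.23% (2.70 to 15.1%), against 22.9% elsewhere (21.8 to 24.1%) and 9.29% in the interiors of chromosomes 5, 6, 8 and 10 (6.16 to 13.3%), an interval that overlaps.

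The 5 widest KO cisplatin peaks were 1276 to 2070 bp, 3 of them on chromosome 18 and 2 on chromosome 4. The widest (44401731 to 44403801) and the fourth (44713727 to 44715066) lay in the same 1 Mb window of chromosome 18 as the widest KO pemetrexed peak and did not overlap it. The 5 widest WT cisplatin peaks were 799 to 1111 bp, the widest at 45259146 to 45260257 on chromosome 13. Another of them (98191991 to 98193061, 1070 bp) lay beyond the far end of the longest KO pemetrexed run. The 5 widest WT pemetrexed peaks were 722 to 852 bp, and 1 of them, at 97939018 to 97939837 on chromosome 13, lay inside that run.

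Few peaks of different lists met, as in the rest of the genome. In the interiors, 2 pairs of peaks of different lists overlapped by at least 1 bp. On chromosome 13 a WT pemetrexed peak (49724769 to 49725322) and a WT cisplatin peak (49724771 to 49725447) shared 551 bp. On chromosome 18 a WT pemetrexed peak (32329667 to 32330278) lay whole within a KO cisplatin peak (32329584 to 32330568), sharing 611 bp. Each pair was 1.47% of the WT pemetrexed peaks, where 1.06% of those elsewhere met a WT cisplatin peak and 1.18% a KO cisplatin peak. Of the 83 KO pemetrexed peaks, 0 met a peak of any other list (exact upper bound 4.35%). Elsewhere 6.34% of them met a KO cisplatin peak, above that bound, and 1.39% a WT cisplatin and 0.251% a WT pemetrexed peak, both below it. In the interiors of chromosomes 5, 6, 8 and 10, 2.86% met a KO cisplatin peak (8 of 280, 1.24 to 5.55%). This share lay below the bound of 4.35%, so no difference from those interiors was detectable.

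Between the drugs in KO cells, 0 of 207 interior cisplatin peaks met a pemetrexed peak, which allows a share of up to 1.45% by 3 counts (exact upper bound 1.77%). Elsewhere 7.67% of the KO cisplatin peaks did (334 of 4355, 6.90 to 8.4999%), where KO pemetrexed peaks covered far more of the genome (8851 kb over 2504 Mb against 105 kb over 320 Mb in the interiors). In the interiors of chromosomes 5, 6, 8 and 10, where they covered 353 kb over 591 Mb, the share was 1.35% (8 of 591, 0.586 to 2.65%), and no difference from it was detectable. Between the genotypes, 0 of 68 WT peaks after pemetrexed met a KO peak (exact upper bound 5.28%), and 0 of 83 after cisplatin (4.35%). Elsewhere these shares were 1.53% and 1.86%, within those bounds.

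Nearness within 100 kb was rarer in the interiors than in the pooled rest of the genome, where all lists were denser. Of the 83 KO pemetrexed peaks, 45 had a KO cisplatin peak within 100 kb, 54.2% (42.9 to 65.2%), against 77.6% elsewhere and 51.1% in the interiors of chromosomes 5, 6, 8 and 10. Within 10 kb 6 had one, 7.23% (2.70 to 15.1%), against 24.4% elsewhere and 11.4% in the interiors of chromosomes 5, 6, 8 and 10. In the other direction, 27 of 207 KO cisplatin peaks had a KO pemetrexed peak within 100 kb, 13.04% (8.77 to 18.4%), against 47.1% elsewhere. In the interiors of chromosomes 5, 6, 8 and 10 the share was 21.997% (18.7 to 25.6%), an interval above that of 4, 13 and 18. KO pemetrexed peaks were denser there, at 0.474 against 0.259 per Mb. Within 10 kb 4 of the 207 had one, 1.93% (0.529 to 4.87%), against 21.1% elsewhere and 5.58% (3.87 to 7.75%) in the interiors of chromosomes 5, 6, 8 and 10. Because KO pemetrexed peaks come in runs, 1 nearby cisplatin peak can serve many of them. The closest such pair was on chromosome 4, where a KO cisplatin peak (8072662 to 8073375) ended 247 bp before a KO pemetrexed peak (8073622 to 8074887). On chromosome 18 a WT cisplatin peak (44798209 to 44798984) lay 3197 bp before the widest KO pemetrexed peak. Between the genotypes after pemetrexed, 3 of 68 WT peaks had a KO peak within 100 kb (4.41%, 0.919 to 12.4%), against 21.3% elsewhere. After cisplatin 20 of 83 WT peaks did (24.1%, 15.4 to 34.7%), against 52.4% elsewhere. In the interiors of chromosomes 5, 6, 8 and 10 these shares were 5.41% and 33.1%, within the intervals given.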

How the data were processed

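The submitters' processing notes name Bowtie (without a version), MACS 1.4 and the build hg18. For the control library, the threshold and filters, nothing is given in the sources used here. The authors deposited 1 peak list for each of 4 libraries. Per the file headers, peaks come as chromosome, start and end alone, without height, score or read count, so depth and its effect on peak number and width are unknown. No list held duplicated (0) or overlapping (0) peaks. Positions are printed as listed, and starts may differ by 1 bp from a browser. No hg18 sequence or gene annotation was used here, so peaks are assigned to no gene and no sequence is shown.

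Groups came from sample titles. Peaks were counted by midpoint, with Python 3.11.15, pandas 2.3.3 and scipy 1.17.1. Unplaced contigs did not enter shares and ratios. Densities divide by the span between the first and last base covered by any list, less what was left out. Ratios of counts and shares have Clopper-Pearson 95% intervals, odds ratios conditional exact ones, and no p-value was computed. Lists met at a minimum overlap of 1 bp. The named places were the 5 widest peaks per list, all overlaps between lists, the 5 windows with the most peaks (ties included) and the longest empty stretches. The longest gaps of single lists, the runs and the closest pairs were chosen after their values were seen. Functions were tested on simulated data. The members, comparisons and named places were chosen with earlier results of these data known. The alternatives were joining within 10 or 100 kb, a minimum width of 600 bp, 10 Mb left out at the ends, centromere stretches kept, each chromosome left out, other reference chromosomes and other overlap rules.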

Additional observations from a re-analysis of the deposited data

Results flagged for a closer look

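The KO over WT ratio of interior peaks differed between the drugs. It was 1.22 after pemetrexed and 2.49 after cisplatin, and the first divided by the second was 0.490 (95% exact interval 0.319 to 0.753). With peaks of at least 600 bp alone, which left 82 KO but only 21 WT pemetrexed peaks, it was 1.01 (0.549 to 1.90). That interval includes 1 and overlaps the first, so it cannot tell whether the difference is gone. Joining within 100 kb gave 0.293. For peaks as listed, the same quotient over all other placed peaks was 2.42 (2.21 to 2.65), with the drugs in the opposite order. In the interiors of chromosomes 5, 6, 8 and 10 it was 0.643 (0.504 to 0.821) and in that of chromosome 2 it was 0.802 (0.570 to 1.13). This comparison was chosen after the data were seen, and it compares 4 libraries with no replicate.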

How the results depend on the processing

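For 10 results, 69 alternative values were computed. No paired analysis was possible because the labels carry no replicate numbers and a group holds 1 library. With peaks within 100 kb joined, KO over WT after pemetrexed was 0.627, pemetrexed over cisplatin in KO 0.239, the pemetrexed odds ratio 0.424 and the pemetrexed ratio divided by the cisplatin ratio 0.293. With peaks of at least 600 bp alone, KO over WT was 3.90 after pemetrexed and 3.87 after cisplatin, pemetrexed over cisplatin in WT was 0.457, and the quotient of the ratios turned to 1.01. Against chromosomes 2, 5, 6, 8 and 10 the pemetrexed odds ratio was 0.775. KO cisplatin peaks meeting a KO pemetrexed peak numbered 4 within 10 kb and 27 within 100 kb, and WT cisplatin peaks meeting a KO cisplatin peak 20 within 100 kb. The other 57 values, among them those without each chromosome, stayed within the intervals of the reported values. The cause of the shifts was not tested. Unknown depth and 1 library per group limit every comparison.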

Other observations

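Each of the 3 interiors had a long stretch with no peak of any list. On chromosome 4 it spanned 9.12 Mb (158105865 to 167226942), on chromosome 13 it spanned 9.12 Mb (79545968 to 88663797) and on chromosome 18 it spanned 6.90 Mb (21838460 to 28739305). In the left-out stretches beside the centromeres of chromosomes 4 and 18 there were 19 KO cisplatin, 7 WT cisplatin, 4 KO pemetrexed and 4 WT pemetrexed peaks. The unplaced contigs of chromosomes 4 and 13 held 1 KO pemetrexed and 1 KO cisplatin peak.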
